A study of Mus musculus with 6 samples.

Results

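Cytosolic ribosomal proteins are the protein parts of the ribosome outside mitochondria, and they were examined here in brains lacking the neural cell adhesion molecule NCAM. Members were chosen by name alone. They are the probe sets whose annotation gives 1 gene symbol that starts with Rpl or Rps and a digit, or is Rpsa, Rplp0, Rplp1 or Rplp2, without the Rps6k kinases. The rule found 49 of 12422 probe sets, for 35 genes, with 22 probe sets of 17 large-subunit genes and 27 of 18 small-subunit genes. Rplp1 and Rplp2 had no probe set under this rule. The brains came from 6 male C57BL/6J mice, each hybridised to its own one-colour array. A group had 3 animals, either with a constitutive knockout of Ncam or wild type with a shared genetic background. Replicate 3 of either genotype was aged 3 months, and the 4 remaining animals 2 months. Total brain was used, so fewer cells of a type and less RNA per cell cannot be told apart.

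A ribosome joins a small subunit, which reads the messenger RNA, to a large subunit, which forms the peptide bond. Cells make the proteins of both subunits in matched amounts, and their messenger RNAs are among the most abundant in neurons and glia. Most of these messenger RNAs begin with a C and a run of pyrimidines, the terminal oligopyrimidine tract, through which growth signals that pass by the mTOR kinase control their translation. Ribosomal protein genes have also left many processed pseudogenes in the genome, so a probe set can read near-identical copies, and the values below carry that uncertainty.

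The gene starts are shown first because the tract is the feature these messenger RNAs are known for. The examples are genes with a tract, and Rpl10a and Rplp0 as genes without one. RefSeq windows of the GRCm38.p6 build, from 10 bases before the annotated start to 20 bases from it onward, were found for 28 of the 35 genes. A tract was searched for on the coding strand as a C followed by at least 7 bases that are each C or T, and capitals mark it.

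Rpl13a, chr7:45128726-45128755, minus strand: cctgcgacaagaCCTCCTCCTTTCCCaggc

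Rpl7a, chr2:26910797-26910826, plus strand: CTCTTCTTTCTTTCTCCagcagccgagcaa

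Rps10, chr17:27635225-27635254, minus strand: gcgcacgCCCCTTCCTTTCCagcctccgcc

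Rps18, chr17:33955646-33955675, minus strand: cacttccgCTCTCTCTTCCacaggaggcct

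Rpl10a, chr17:28328461-28328490, plus strand: gcccccccagcggccgcaaactgcagcgcc

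Rplp0, chr5:115559457-115559486, plus strand: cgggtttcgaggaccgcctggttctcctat

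Such a tract stood in 10 of 37 member windows (27.0%) and in 2851 of 32851 windows of all genes (8.68%). In Rpl13a it was 14 bases long and began 2 bases after the annotated start. Rpl10a, shown at 1 of its 2 annotated starts, and Rplp0 held only runs of C and T shorter than the 8 bases asked for. This says only that these letters are not there. The core CCGGAAG, searched on both strands from 250 bases before to 50 bases after the start, stood in 12 of the 37 member windows (32.4%) and in 8.86% of all windows. Of the 10 genes with a tract, 7 had a tested probe set. Their log2 differences between knockout and wild-type brains, by the brightest probe set of each, were 0.56 for Rpl13a, 0.10 for Rpl7a, 0.07 for Rps18, 0.06 for Rps10, 0.01 for Rps27, -0.01 for Rpl19 and -0.04 for Rps24. Genes with a tract in the window thus had values on both sides of 0. The Rpl19 tract lay wholly before the annotated start, so it would not be part of a messenger RNA begun there.

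All arrays had been scaled alike, since the central 96% of each array's values averaged 300.2. Correlations of log2 signals among the arrays were 0.967 to 0.985. The brightest Ncam1 probe set, the check of the labels, read 270.8 ± 59.6 (SD, n = 3) in knockout and 1337 ± 116 in wild-type brains (log2 difference -2.26 ± 0.15, adjusted p = 0.00076 in limma). The labels do not say where the deleted part lies relative to this probe set. The summed signal of 9 cerebellar markers was 2367 in knockout replicate 2 and 8655 to 9936 on the other arrays. That of 8 pituitary markers was 15820, 1318 and 1401 in knockout replicates 1, 2 and 3, against 1055, 985 and 1152 in wild-type replicates, without overlap. All 6 tested pituitary markers had higher means in knockout, 3 of them without overlap, beside 6.08% of all probe sets. The part of these tissue differences in the member values was not tested. None of these markers was at 0.

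Ribosomal protein transcripts as a family were at nearly the same level in both genotypes. Of the 49 probe sets, 33 were bright enough to be tested, for 26 genes, and 19 had a higher and 14 a lower mean in knockout brains. The median difference, knockout minus wild type on the scale of log2(signal + 16), was 0.04, beside 0.00 over all 7453 probe sets tested. No member passed the test across all probe sets at an adjusted p under 0.05 in limma (lowest adjusted p = 0.433), where 0.0268% of all probe sets did. With no adjustment, limma placed 2 members higher and 1 lower at p under 0.05, together 3 of 33, beside 6.94% of all probe sets. Without knockout replicate 2 the members under 0.05 were 7 of 33, beside 9.54% of all probe sets. Of the members, 28 lay within 0.15 of 0, as did 5090 of all 7453.

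The large subunit had a median difference of 0.01 over 15 probe sets, with 8 higher and 7 lower. The small subunit had 0.04 over 18 probe sets, with 11 higher and 7 lower. Against the wild-type mean, the median over all tested members was 0.01, 0.04 and -0.01 in knockout replicates 1, 2 and 3. In the wild-type replicates it was 0.01, -0.03 and 0.00. The groups overlapped, and the highest value belonged to knockout replicate 2, the animal with low cerebellar signal, where 21 of 33 members lay above the wild-type mean. The median of all members was 0.01 without knockout replicate 2, without knockout replicate 3 or without wild-type replicate 2. The order of the subunits turned, with the large-subunit median above the small, without knockout replicate 1 (0.04 and 0.01), 2 (0.04 and 0.00) or 3 (0.01 and 0.00) and without wild-type replicate 3 (0.04 and 0.02). The difference between the subunits was not tested.

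**Figure D1:**
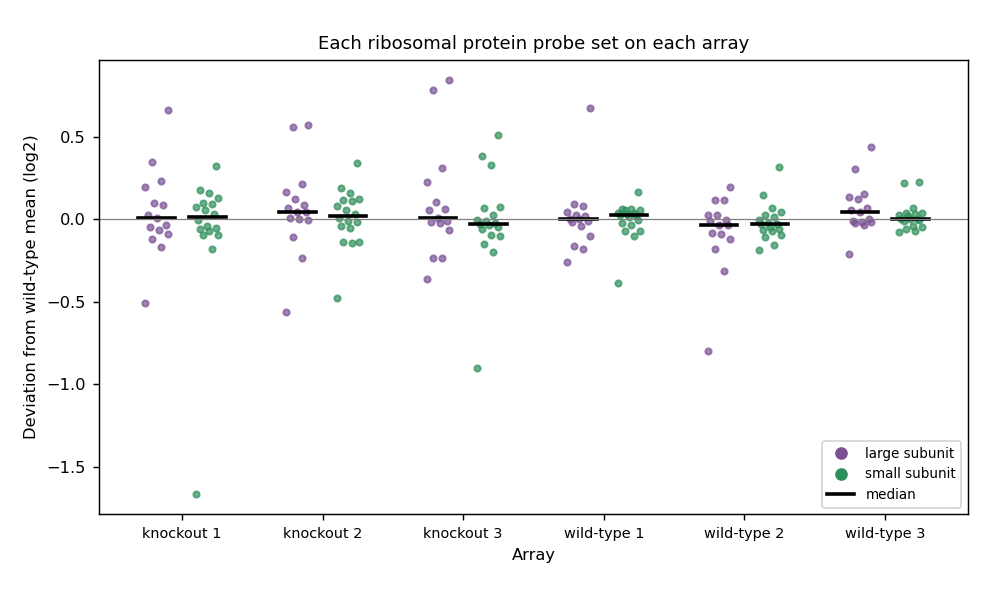
Deviation of each tested ribosomal protein probe set from its wild-type mean (log2) on each of the 6 arrays, 15 of the large and 18 of the small subunit, with black bars for the medians. The medians lie close to 0 on every array, between -0.03 and 0.05, and a few dim probe sets lie far away.

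Among the bright members the difference was bounded tightly. For 19 probe sets with a mean signal of 1000 or more, the differences ran from -0.15 to 0.14, with a median standard error of 0.06. The 95% interval of the difference lay within 1.25-fold in either direction for 18 of these 19, and for 805 of 1081 other probe sets as bright. Their median residual SD between replicates was 0.06, and that of the other bright probe sets 0.09. Among the 14 dimmer members the interval lay within that bound for 3, so a change of 1.25-fold was not excluded for the other 11.

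Several of the steady members form known working sites of the ribosome. Rplp0, the base of the stalk that recruits elongation factors, read 3164, 3161 and 3010 in knockout animals 1 to 3, against 3244, 3122 and 3079 in wild-type animals. The groups overlapped, and the difference was -0.02 ± 0.06 (SE; 95% interval -0.14 to 0.11). Rpl19, a large-subunit protein near the subunit interface, read 3946, 4252 and 4066 against 4089, 4192 and 4094 by its brighter probe set, a difference of -0.01 ± 0.05. Rpl8, which lies close to the site of peptide bond formation, had 0.04 ± 0.06. Rpl41, one of the smallest proteins known in eukaryotes, read 11447 to 12795 against 11493 to 13512, a difference of -0.03 ± 0.07 by a less specific probe set.

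Small-subunit members were also close in both groups. Rps3, which lines the entry of the channel and also acts in DNA repair, read 3542, 3974 and 3618 against 4116, 3858 and 4077. Knockout replicates 1 and 3 lay below every wild-type animal and replicate 2 did not (-0.11 ± 0.06, 95% interval -0.26 to 0.03). Rps18 and Rps10, proteins of the head, had 0.07 ± 0.06 and 0.06 ± 0.06, and Rps7 and Rps3a1 had 0.06 ± 0.07 and -0.05 ± 0.06. Rpsa, known also as a laminin receptor precursor, read 1287, 1445 and 1158 against 1271, 1400 and 1331 (-0.05 ± 0.09). Rps19, whose human counterpart is mutated in Diamond-Blackfan anaemia, read 755.8, 926.1 and 854.1 against 827.3, 834.8 and 768.8 (0.06 ± 0.09). Rps27, a zinc finger protein of the small subunit, had 0.01 ± 0.10. In each of these the knockout and wild-type ranges overlapped.

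The most negative values among bright large-subunit members were those of Rpl37a and Rpl6. Rpl37a, a small zinc-binding protein, read 2618, 2782 and 2165 in knockout against 2824, 2626 and 2925 in wild-type brains (-0.15 ± 0.09). Rpl6 read 3372, 3662 and 3116 against 3615, 3571 and 3803 (-0.12 ± 0.07). In both, knockout replicates 1 and 3 lay below every wild-type animal and replicate 2 did not. For Rpl37a, replicate 1 was only just below and replicate 3 was the lowest. Rpl7a had 0.10 ± 0.09, with 2618, 2372 and 2212 against 1996, 2416 and 2304. None of the 3 passed, with adjusted p values in limma of 0.765, 0.762 and 0.836.

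**Figure D2:**
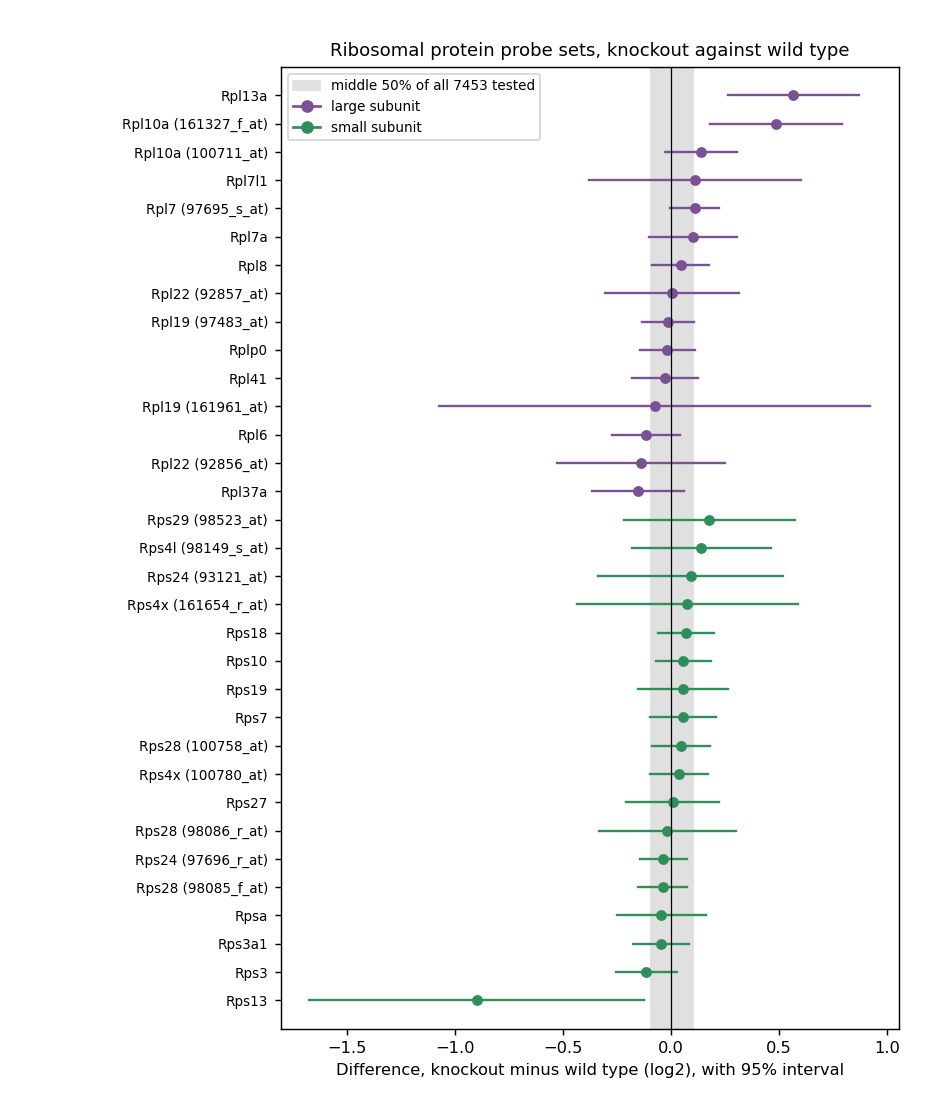
Difference between knockout and wild-type brains (log2) for the 33 tested ribosomal protein probe sets, with 95% intervals of the limma fit, by subunit, over a grey band for the middle 50% of all 7453 probe sets. Rpl13a, a less specific Rpl10a probe set and Rps13 have intervals that leave out 0, before any adjustment.

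Rpl13a had the lowest p among the members. It is a large-subunit protein, a host gene of small nucleolar RNAs and a common reference gene in quantitative PCR. Its single probe set read 303.3, 353.5 and 415.9 in the knockout brains, in replicate order, against 228.0, 215.1 and 263.4 in wild-type brains. All 3 knockout animals lay above all wild-type animals, and the 3-month-old animal was the highest in each group. The means were 357.6 ± 56.4 (SD, n = 3) and 235.5 ± 24.96, a log2 difference of 0.56 ± 0.13 (95% interval 0.26 to 0.87), or 1.48-fold. The value did not pass the adjustment over all probe sets (adjusted p = 0.433 in limma). By exact permutation (two-sided) p was 0.1, the lowest that 3 against 3 allows. The difference lay between 0.45 and 0.67 when each array was left out in turn.

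Rpl10a, a protein of the mobile stalk next to the exit site of transfer RNA, had the next lowest p and a gap between its probe sets. The less specific one, with the suffix _f_at, read 805.0, 754.4 and 591.5 in knockout brains, against 537.2, 546.9 and 433.5 in wild-type brains. Its groups did not overlap, and the difference was 0.49 ± 0.13 (adjusted p = 0.538 in limma). The other read 1547, 1567 and 1361 against 1373, 1346 and 1334. Knockout replicates 1 and 2 lay above every wild-type animal and replicate 3 within their range, with a difference of 0.14 ± 0.07 (adjusted p = 0.743). Both probe sets had higher means in knockout, and replicate 3 was the lowest of its group in both. The values of the 2 probe sets differed by 0.35 on the log2 scale, the widest gap among the genes with more than 1 tested probe set.

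Rpl7, an RNA-binding protein of the large subunit, was higher by a small and even margin. It read 3736, 3804 and 3759 in knockout against 3490, 3552 and 3431 in wild-type brains, by a less specific probe set. The groups did not overlap, and the difference was 0.11 ± 0.05, or 1.08-fold (95% interval -0.01 to 0.22, adjusted p = 0.724 in limma). Its second probe set was dim, at 5.08 to 20.9 in all animals, and was not tested.

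These 3 probe sets were the tested members without overlap between the groups. In all, 3 of 33 were without overlap with knockout higher, beside 6.08% of all probe sets, and 0 of 33 with knockout lower, beside 6.80%. Gapdh control probe sets, read as 3' over 5' signal, a sign of RNA quality, gave ratios of 0.811 to 0.826 for knockout brains and 0.768 to 0.798 for wild-type brains, also without overlap. The same ratio of the actin controls was 1.22, 1.18 and 1.14 against 1.09, 1.08 and 1.20, with overlap. The part of the Gapdh ratio in the values of Rpl13a, Rpl10a and Rpl7 was not tested.

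**Figure D3:**
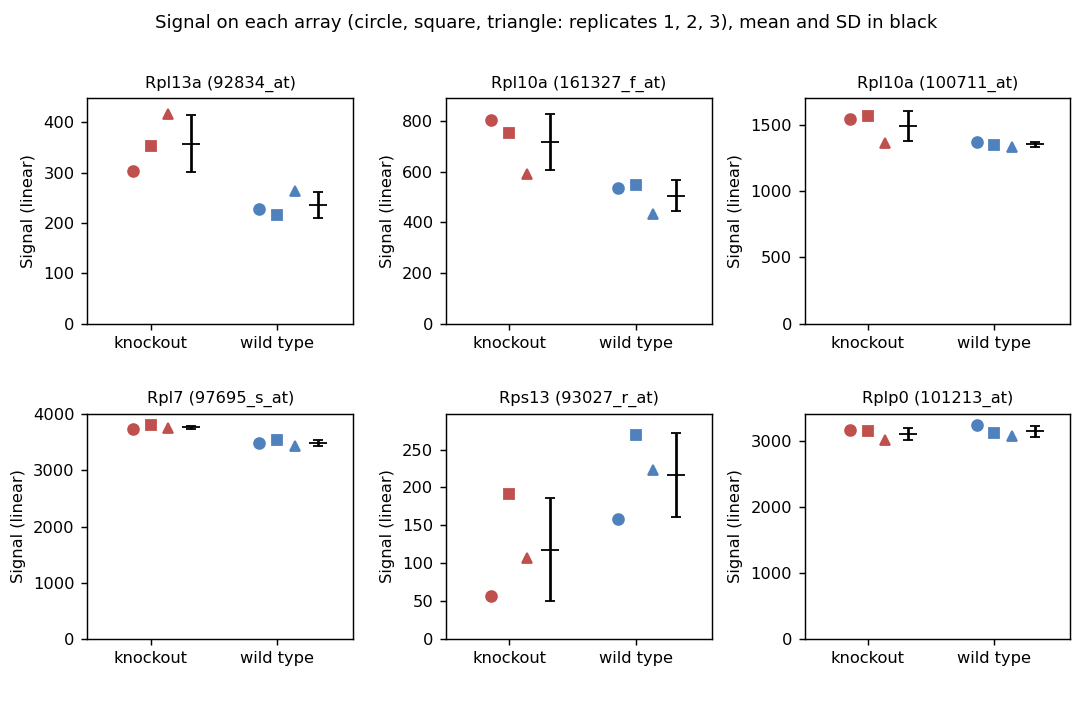
Linear signal on each array for Rpl13a, both Rpl10a probe sets, the brighter Rpl7 probe set, Rps13 and Rplp0, with the group mean and SD (n = 3) in black. Rpl13a, the _f_at probe set of Rpl10a and Rpl7 are higher in every knockout animal, Rps13 overlaps between the groups, and Rplp0 is level.

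Rps13, which forms part of a bridge between the subunits, had the most negative value. It read 56.1, 190.7 and 106.3 in knockout brains, against 158.2, 268.6 and 223.2 in wild-type brains, by a probe set with the suffix _r_at, which marks a less strict choice of probes. Knockout replicate 2 lay above wild-type replicate 1, so the groups overlapped. The difference was -0.90 ± 0.34 (95% interval -1.68 to -0.12, adjusted p = 0.719 in limma). Without knockout replicate 1 it was -0.52, and the signal varied by 46.4% (coefficient of variation) over the 6 arrays. By comparison, this variation was 2.56% for Rplp0, 2.58% for the brighter Rpl19 probe set and 26.1% for Rpl13a.

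Probe sets of the same gene were compared for 6 genes with 13 tested probe sets. Their signs were the same for Rpl10a, Rpl19 and Rps4x and opposite for Rpl22, Rps24 and Rps28. Rps4x, the X-linked form of a small-subunit protein, had 0.04 ± 0.06 and 0.07 ± 0.23. Its 3 remaining probe sets were too dim to test, with signals of 7.54 to 36.9. Rps28, a small protein near the exit of the messenger RNA channel, had 0.04 ± 0.06, -0.04 ± 0.05 and -0.02 ± 0.14. Rps24 had -0.04 ± 0.05 by its bright and 0.09 ± 0.19 by its dim probe set.

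Rpl22, an RNA-binding protein with a known role in lymphocyte development, had -0.14 ± 0.17 and 0.01 ± 0.14 by its probe sets, whose values overlapped between the groups. The dimmer Rpl19 probe set read 61.1 to 187.4 in knockout brains, against 49.4 to 165.1 in wild-type brains (-0.08 ± 0.44), and did not bound the difference. Except for Rpl10a, the values of a gene's probe sets lay within 0.15 of each other.

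The paralogs and the pseudogene under the same naming rule, and Rps29, gave no call either. Rpl7l1, a relative of Rpl7 that acts in ribosome assembly, had 0.11 ± 0.22. Rps4l, listed as a transcribed pseudogene, read 385.4, 434.0 and 316.8 against 330.9, 296.6 and 397.9 (0.14 ± 0.14) by its brighter probe set. Rps29, a zinc-binding small-subunit protein, read 160.3, 127.6 and 208.8 against 131.4, 158.7 and 137.0 (0.18 ± 0.17) by its brighter probe set. Its other probe set was too dim to test and had a lower mean in knockout, at 27.3, 19.2 and 13.8 against 36.1, 25.4 and 28.5. Rpl39l and Rps27l were dim, at 10.0 to 26.2 and 6.05 to 12.1.

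In all, 16 member probe sets fell below the brightness limit, a mean log2 value of 6.46 or a signal of 72.2, and 9 genes had none above it. The 9 genes were Rpl32, Rpl35a, Rpl38, Rpl39, Rpl39l, Rps14, Rps15, Rps20 and Rps27l. Such a reading belongs to the probe set and does not give the amount of the protein or its messenger RNA. Of these 16, 1 had no overlap between the groups with knockout higher, beside 7.35% of all 4969 probe sets below the limit, and 0 with knockout lower, beside 3.42%. This was an Rpl38 probe set with the suffix _r_at, at 57.6, 41.5 and 49.0 in knockout brains, against 27.2, 31.0 and 27.1 in wild-type brains. It was not tested. Mutations of Rpl38 are known to change the body plan of mice. Its second probe set read 0.896 to 8.91.

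Age was the other labelled condition, with 4 animals of 2 months and 2 of 3 months and with genotype as an added term. No member passed (lowest adjusted p = 0.250 in limma), where 0.0268% of all probe sets did. Before adjustment 4 of 33 members were under 0.05 in limma, 3 of them higher and 1 lower at 3 months, beside 12.4% of all probe sets. The _f_at probe set of Rpl10a was lower at 3 months (-0.35 ± 0.08, adjusted p = 0.250), and the other had -0.11 ± 0.07. Rpl41, Rpl7l1 and Rpl13a had 0.16 ± 0.05, 0.48 ± 0.17 and 0.28 ± 0.10. The median over members was -0.02. Each group had a single 3-month-old animal, so age cannot be told apart from those 2 animals.

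A further 39 probe sets had annotations that joined a ribosomal protein symbol or one of its pseudogenes with other symbols. No gene is named for them. Of these, 35 were tested, with 21 higher, 14 lower and a median difference of 0.01. None passed. Before adjustment 3 of those with higher and 1 of those with lower values were under 0.05 in limma, together 4 of 35, beside 6.94% of all probe sets. In 5 of the 35 the groups did not overlap with knockout higher and in 0 with knockout lower, beside 6.08% and 6.80%. In 1 of them the signal was 7864 to 8211 in knockout brains, against 6290 to 6692 in wild-type brains, a difference of 0.32 ± 0.05 (adjusted p = 0.132 in limma). The lowest value, -1.20 ± 0.48, came from a dim probe set whose groups overlapped.

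The other parts of the translation machinery were described by lists, with 1 probe set per gene, the brightest. Mitochondrial ribosomal proteins, which serve the separate ribosome of that organelle, had a median difference of 0.02 over 55 genes, with 30 higher and 25 lower. Before adjustment 5 of the 55 were under 0.05 in limma, all with higher values in knockout. Over all 7453 probe sets, 243 were under 0.05 with higher and 274 with lower values. None of the 55 passed (lowest adjusted p = 0.544). Mrpl35 had 0.36 ± 0.10, Mrpl46 0.52 ± 0.17 and Mrps21 0.22 ± 0.08. Groups did not overlap for 6 genes with knockout higher, these 3 among them, and for 5 with knockout lower, beside 6.08% and 6.80% of all probe sets.

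The list of elongation factors, which carry the ribosome along the message, had 4 of 7 genes higher and a median of 0.02. It also held the release factors Etf1 (0.04 ± 0.07) and Gspt1 (0.04 ± 0.14), which end translation and were both among the higher. The other higher genes were Eef1d (0.10 ± 0.10) and Eef1b2 (0.02 ± 0.30), and Eef1a1, Eef1a2 and Eef2 were lower. Eef1a1, which delivers transfer RNA, read 10805 ± 293 against 11864 ± 685 (-0.13 ± 0.05), its neuronal and muscle form Eef1a2 had -0.15 ± 0.06 and the translocase Eef2 -0.09 ± 0.06. Before adjustment 2 of the 7 listed genes, Eef1a1 and Eef1a2, were under 0.05 in limma, both lower, beside 6.94% of all probe sets in either direction. Groups did not overlap for 2 with knockout lower, Eef1a1 and Eef2, and for 0 with knockout higher, beside 6.80% and 6.08% of all probe sets. Summed over the 9 listed genes on the array, every knockout brain (21720 to 23270) lay below every wild-type brain (23310 to 25310). Most of this linear sum came from Eef1a1 and Eef1a2 (6122 ± 486 against 6783 ± 233), so it largely repeats their values and does not describe the list. Initiation factors had 13 of 32 genes higher and a median of -0.01. Eif2b4, a subunit of the exchange factor whose mutation causes leukodystrophy in humans, had -0.41 ± 0.09 by a less specific probe set, and the eIF3 subunits Eif3d and Eif3e had -0.23 ± 0.08 and 0.26 ± 0.12. None of these genes passed (lowest adjusted p = 0.416 for the initiation factors and 0.719 for the elongation factors).

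Genes of ribosome assembly and RNA polymerase I had a median of 0.00 over 34 genes, with 16 higher and 18 lower. Brix1, needed to build the large subunit, had 0.78 ± 0.20 by an _r_at probe set. Imp4, of the small-subunit processome, had -0.37 ± 0.14 and Sbds, which helps release the last factor from new large subunits, -0.19 ± 0.08. Of the signalling genes that set ribosome production, 4 of 9 were higher, with a median of -0.03. Tsc1, which restrains mTOR, had 0.24 ± 0.12, the S6 kinase Rps6kb2 -0.47 ± 0.30 and Akt1 0.13 ± 0.10. No gene of either list passed (lowest adjusted p = 0.494 and 0.743).

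**Figure D4:**
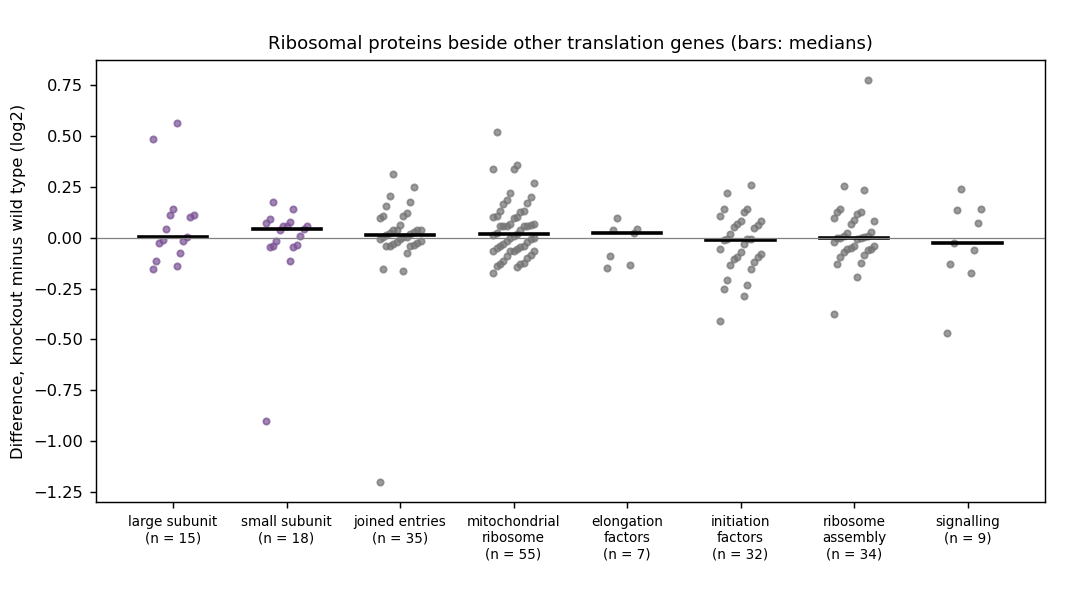
Difference between knockout and wild-type brains (log2) for tested probe sets of the large and small subunit, for entries that join a ribosomal protein symbol with others, and for the brightest probe set of each gene in 5 other translation lists, with black bars for the medians. All medians lie between -0.03 and 0.04. The list of elongation factors also holds the release factors Etf1 and Gspt1.

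Marker lists of other cell types are given beside these values. The summed signal of 5 neuronal markers was 18410 to 19050 in knockout brains, against 18820 to 19230 in wild-type brains, and that of 6 microglial markers 3858 to 4345 and 4069 to 4177. The sum of 5 myelin markers was 10170 to 10810 against 11660 to 11960, without overlap. That of 2 blood markers was 3815 to 4383 against 3279 to 4675, and that of 3 choroid plexus markers 1596 to 2477 against 2005 to 2345. None of the markers was at 0. The part of the myelin difference in the values of Rpl13a, Rpl10a and Rpl7 was not tested.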

How the data were processed

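Each array read biotinylated cRNA of 1 brain. The submitters' processing notes name GCOS 1.4, with a signal algorithm not given in the sources used here. Per array, the authors deposited 12488 intensity values on a linear scale, of which 66 controls were set aside. Gene names came from the platform annotation, which can be old (10833 probe sets with 1 symbol, 396 with several, 1193 with none). All 49 members matched RefSeq (GRCm38.p6) by Entrez identifier, with 0 symbols changed.

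Values were transformed as log2(signal + 16), which understates folds of dim genes. Probe sets at or above the 40th percentile of the mean over all 6 arrays were tested with limma 3.58.1 in R 4.3.3 (lmFit, eBayes with an intensity trend, two-sided), with Benjamini-Hochberg adjustment across the 7453 tested. The number of arrays limits the precision. Figures used matplotlib 3.10.9.

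Named genes are Rpl13a, tested members without overlap, genes fixed by role and the 3 lowest p values of each list. Rps13, Rpl38 and the remaining members fall outside that rule. Members and lists were chosen with earlier results of these data known.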

Additional observations from a re-analysis of the deposited data

Results flagged for a closer look

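The arrays carry control probe sets for 18S ribosomal RNA, the RNA of the small subunit, which no comparison above uses. The probe set at its 3' end read 336.5, 344.8 and 374.8 in knockout replicates 1, 2 and 3 and 280.8, 268.2 and 318.9 in wild-type replicates. It drew attention because every knockout array lay above every wild-type array. The means were 352.0 ± 20.1 (SD, n = 3) and 289.3 ± 26.4, a log2 difference of 0.27. By exact permutation (two-sided) p was 0.1, the lowest that 3 against 3 allows. The probe set was picked among the 18S controls for this separation, which fixes that p, so it is no evidence of a difference. Of all probe sets tested, 6.08% were higher in knockout without overlap. The probe sets for the 5' end (60.1, 75.2 and 67.7 against 68.5, 53.6 and 63.1) and the middle (54.7, 44.7 and 24.7 against 22.6, 32.4 and 20.4) overlapped between the groups. The amount of 18S RNA is not given by these values, and the cause of the difference was not tested.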

How the results depend on the processing

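Under 20 alternatives no ribosomal protein probe set was called (lowest adjusted p 0.141 to 0.940 in limma), and none for age under 3. With the replicate number as a block, 0 members were called and the median of all members stayed at 0.04. After the group mean of each probe set was subtracted, what remained correlated at 0.01, 0.15 and 0.20 between same-numbered animals. The numbers were not taken as pairs, which these values alone do not settle, since those between unlike-numbered animals are not given. Same-numbered animals also shared their age. The median of all members was 0.01 to 0.06 over the alternatives, and moved by more than the spread between replicates without knockout replicate 2 (leave-one-out range 0.0099 to 0.035). The large-subunit median was 0.055 after quantile normalisation and 0.040 without the filter on dim probe sets, with a leave-one-out range of 0.0030 to 0.045, and lay below 0 in 2 alternatives (lowest -0.0092). The small-subunit median was 0.0096 in 2-month-old animals alone, with a leave-one-out range of 0.00086 to 0.059. The cause of these moves was not tested. After quantile normalisation 24 members were higher and 9 lower. Rpl13a stayed above 0 in all 20 alternatives (adjusted p 0.180 to 0.940), and Rps13 below 0 in the 18 that tested it (-1.28 to -0.52). Rplp0, Rpsa, Rps19 and Rpl22 changed sign in some. With 3 animals a group, signal limits what dim members can show.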
